A study of Homo sapiens with 6 samples.

Results

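The genes described here encode 8 enzymes of heme biosynthesis, ALAS1, ALAS2, ALAD, UROS, UROD, CPOX, PPOX and FECH. They were chosen by function, by matching the gene identifiers of the expression table to official symbols, and all 8 were found among the 12486 genes listed. RNA-seq was performed on total RNA of K562, a human cell line derived from chronic myeloid leukemia that carries the Bcr-Abl fusion oncogene and keeps features of erythroid precursors. In the control group the cells stably expressed an shRNA against luciferase (sh-luc), and in the knockdown group an shRNA against lncRNA-IUR1 (sh-IUR1), a long noncoding RNA named lncRNA-up91 in the sample labels. Each group had 3 libraries, 1 without a number and 2 numbered r1 and r2, and the methods describe independent groups of cells. No drug treatment is stated for either group, each group rests on 1 shRNA and 1 cell line, and the level of lncRNA-IUR1 itself was not analysed here. The libraries came from whole cultures, so that fewer cells of a type and less RNA per cell cannot be told apart.

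Heme is the iron-containing ring that carries oxygen in hemoglobin and electrons in the cytochromes. Its synthesis begins in the mitochondrion with 5-aminolevulinic acid, continues in the cytosol, where the ring is built and trimmed, and returns to the mitochondrion, where the ring is oxidized and iron is inserted. The first step is made by one of a pair of isoenzymes, the widely expressed ALAS1, which heme represses, and the erythroid ALAS2, whose gene is a target of the erythroid factor GATA1 and whose mRNA is controlled by iron. Erythroid cells make heme in very large amounts for their globins, and defects of these enzymes cause the porphyrias and some sideroblastic anemias.

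Expression was given as FPKM, fragments normalized to transcript length and library size, which allows levels to be set side by side between genes. Such comparisons depend on the transcript length used for each gene, which is not stated. The FPKM values of a library summed to between 579820 and 606240 over the listed genes. These sums are not sequencing depths, and the number of fragments behind each value is unknown here. Differences are given as log2 of (FPKM + 1) in sh-IUR1 minus sh-luc, with the 95% interval and p-value of a limma fit to 12276 genes, those whose mean reached 0.1 FPKM. In that fit 0 genes (0%) passed an adjusted p of 0.05, the smallest adjusted p being 0.930. At an unadjusted p under 0.05, 203 genes (1.65%) were higher and 122 (0.994%) lower in sh-IUR1, a split of 62.5% higher that became 42.9% after quantile normalization and 52.9% after median-ratio scaling. All 9 erythroid markers examined were expressed, among them GATA1 at 182 to 200.42 FPKM and the fetal globin HBG2 at 2559 to 3565 FPKM, whose reads cannot be separated with certainty from those of its near copy HBG1. Among markers of other cells, CD3E, CD79A and COL1A1 did not exceed 0.37 FPKM, whereas LYZ reached 119 FPKM and EPCAM 47.6 FPKM.

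The 8 enzymes differed little between sh-luc and sh-IUR1. None passed the adjusted threshold (0 of 8, as for 0% of all genes), and the 95% interval of the difference included 0 for 7 of them. For those 7, the highest upper bound was 1.259-fold (UROS) and the lowest lower bound 0.7657-fold (CPOX) on the FPKM + 1 scale. These bounds hold for single genes in this fit and moved when libraries were omitted. On the log2 scale, the upper bound of UROS went from 0.3321 to 0.4054 without the unnumbered sh-IUR1 library. The lower bound of CPOX went from -0.3851 to -0.4885 without r2 of sh-IUR1. PPOX, the enzyme of the penultimate step, was the exception at the unadjusted level, with 22.3 ± 3.13 FPKM in sh-IUR1 against 18.15 ± 2.02 FPKM in the control (mean ± SD, n = 3 each), a ratio of 1.23 (adjusted p = 0.930 by limma). The median difference of the 8 enzymes was 0.0172 on the log2 scale, against 0.0186 for all genes tested. By sign alone, 6 enzymes were higher and 2 lower in sh-IUR1, where 58.0% of all genes tested were higher, but this count was 4 and 4 after median-ratio scaling and 5 and 3 after quantile normalization.

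**Figure D1:**
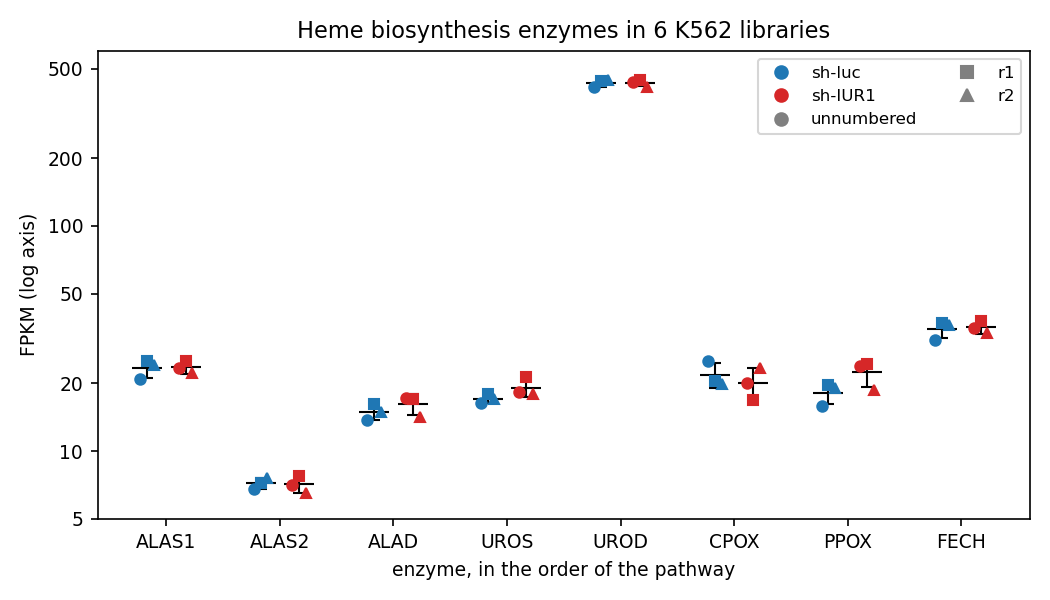
FPKM (log axis) of the 8 enzymes in the order of the pathway, with one point per library, sh-luc in blue and sh-IUR1 in red, the symbol giving the library number; horizontal lines are group means and bars 1 SD (n = 3). UROD lies at 413.32 FPKM and above, the other enzymes lie between 6.51 and 37.95 FPKM, and the groups overlap for 7 of 8 enzymes.

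The enzymes spanned a wide range of levels. UROD stood far above the others with a mean of 433 FPKM over the 6 libraries, higher than 98.6% of the genes listed, and was 12.3 times the next enzyme, FECH. This ratio depends on the transcript lengths used, which are unknown here. The canonical transcripts have 1193 bases for UROD and 7689 bases for FECH. FECH followed with 35.2 FPKM and ALAS1 with 23.5 FPKM, and neither the range of UROD and FECH nor that of FECH and ALAS1 overlapped over the 6 libraries. CPOX (21.0 FPKM), PPOX (20.2 FPKM), UROS (18.1 FPKM) and ALAD (15.6 FPKM) came next, and each of the neighbours from ALAS1 down to ALAD had overlapping ranges. Within a library ALAS1 exceeded CPOX in 4 of 6 cases, CPOX exceeded PPOX in 4 of 6, PPOX exceeded UROS in 5 of 6 and UROS exceeded ALAD in 6 of 6. ALAS2 was the lowest with 7.15 FPKM, 2.177 times below ALAD and with no overlap, near the middle of the table at the 41.8th percentile.

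Promoter sequences of the enzymes were taken from RefSeq (GRCh38.p14) as windows of 300 bases, 250 before and 50 after a transcript start. Of the 8 enzymes, 7 had an entry, with 9 windows in all, and UROS had none. Windows are shown for the isoenzymes ALAS1 and ALAS2, for PPOX, which had the largest difference, and for CPOX, whose levels ran against the others. They are written 5′ to 3′ on the strand of the gene in lower case, and capitals mark GATA words (GATA with A or T before it and A or G after it, which the GATA factors bind) or NRF1 words (GCGC, any 2 bases and GCGC again, bound by the factor NRF1), each on either strand. The windows are chr3:52197833-52198132 on the plus strand for ALAS1, chrX:55030928-55031227 on the minus strand for ALAS2, chr3:98593562-98593861 on the minus strand for CPOX and chr1:161166396-161166695 on the plus strand for the second of 2 PPOX starts.
ALAS1: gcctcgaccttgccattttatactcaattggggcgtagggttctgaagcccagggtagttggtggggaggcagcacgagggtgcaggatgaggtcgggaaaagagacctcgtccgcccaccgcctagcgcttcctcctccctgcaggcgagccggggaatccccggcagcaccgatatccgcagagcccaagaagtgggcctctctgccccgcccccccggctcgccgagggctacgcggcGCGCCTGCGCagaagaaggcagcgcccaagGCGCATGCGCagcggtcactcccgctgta
ALAS2: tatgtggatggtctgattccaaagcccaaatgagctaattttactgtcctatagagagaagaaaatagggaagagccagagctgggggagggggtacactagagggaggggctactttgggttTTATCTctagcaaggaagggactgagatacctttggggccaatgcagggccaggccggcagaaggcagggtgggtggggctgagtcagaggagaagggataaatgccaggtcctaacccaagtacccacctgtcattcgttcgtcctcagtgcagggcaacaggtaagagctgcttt
CPOX: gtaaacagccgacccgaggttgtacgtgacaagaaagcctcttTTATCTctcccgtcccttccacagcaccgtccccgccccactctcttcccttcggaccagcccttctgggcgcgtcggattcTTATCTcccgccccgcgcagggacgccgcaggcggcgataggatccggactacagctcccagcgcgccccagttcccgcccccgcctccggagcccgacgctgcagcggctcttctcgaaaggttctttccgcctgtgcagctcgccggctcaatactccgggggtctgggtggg
PPOX: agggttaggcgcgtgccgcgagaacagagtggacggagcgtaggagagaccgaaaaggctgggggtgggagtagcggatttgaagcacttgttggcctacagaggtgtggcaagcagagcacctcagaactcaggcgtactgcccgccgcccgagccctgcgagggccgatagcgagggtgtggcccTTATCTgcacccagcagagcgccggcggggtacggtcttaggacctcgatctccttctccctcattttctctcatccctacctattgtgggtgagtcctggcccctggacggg

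A GATA word was found in 4 of the 9 windows, those of ALAS2, CPOX, the second ALAD start and the second PPOX start, whereas 25% of the 35116 windows of the same length in the RefSeq table hold one. It lay 127 bases before the start in ALAS2, 207 and 125 bases before it in CPOX, 63 bases in PPOX and 68 bases in ALAD. ALAS1 had 0 GATA words and instead held 2 NRF1 words, 9 bases before and 21 bases after the start, a word found in 8.32% of all windows and in no other window of the enzymes. The words that follow were also sought on either strand. ALAS2 was the enzyme with the word TGAGTCA of NF-E2 and AP-1 (4.95% of all windows), 47 bases before its start. ALAS1 was the one with TATAAA (11.5% of all windows), 234 bases before its start and on the opposite strand, so that it reads tttata in the window shown. The word CACCC of the Krüppel-like factors was found in 8 of the 9 windows, all but that of FECH, and in 59.9% of all windows. These matches describe the letters of the windows, and binding was not measured.

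The first step of the pathway showed no detectable difference between the groups. ALAS1 (gene ID 211, chromosome 3 from 52198083 to 52214327 in GRCh38.p14) was at 20.9, 25.1 and 24.2 FPKM in sh-luc (unnumbered, r1 and r2) and at 23.3, 25.1 and 22.2 FPKM in sh-IUR1. The unnumbered sh-luc library was the lowest, and the groups overlapped almost entirely. Their means were 23.4 ± 2.215 and 23.5 ± 1.45 FPKM (SD, n = 3), with a log2 difference of 0.0095 (95% interval -0.18 to 0.20, adjusted p = 0.987 by limma), a value that turned to -0.0104 after median-ratio scaling.

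ALAS2 (gene ID 212, chromosome X from 55009055 to 55030977) was at 6.79, 7.21 and 7.56 FPKM in sh-luc and at 7.10, 7.75 and 6.51 FPKM in sh-IUR1. Both its lowest library, r2, and its highest, r1, belonged to sh-IUR1. The means were 7.19 ± 0.3855 and 7.12 ± 0.620 FPKM, and the log2 difference was -0.0135 (95% interval -0.21 to 0.18, adjusted p = 0.982 by limma). Its canonical transcript shares 3 bases with APEX2 on the opposite strand, and strand-specific counting is not stated.

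The share between the isoenzymes was examined as a ratio within each library. ALAS2 amounted to 32.5, 28.7 and 31.2% of ALAS1 with sh-luc and to 30.5, 30.9 and 29.3% with sh-IUR1. All sh-IUR1 values fell within the range of the sh-luc values. The log2 ratio of ALAS2 + 1 to ALAS1 + 1 FPKM differed by -0.0230 between the groups, or by -0.0257 without the added 1 (p = 0.7 by a two-sided exact permutation of the labels, which cannot go below 0.1 with 3 against 3), and by 0.0178 (with the added 1) in the other direction without the unnumbered sh-luc library.

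In the cytosolic steps, ALAD and UROS had slightly higher means in sh-IUR1, whereas the means of UROD were nearly equal. ALAD (gene ID 210, chromosome 9 from 113386312 to 113401284), which condenses 5-aminolevulinic acid to porphobilinogen, was at 13.8, 16.1 and 15.0 FPKM in sh-luc and at 17.3, 17.1 and 14.2 FPKM in sh-IUR1. The unnumbered and r1 libraries of sh-IUR1 lay above every sh-luc library, but r2 lay among them. The log2 difference was 0.10 (95% interval -0.10 to 0.31, adjusted p = 0.930 by limma), with means of 15.0 ± 1.17 and 16.2 ± 1.70 FPKM.

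UROS (gene ID 7390, chromosome 10 from 125784980 to 125823258) closes the chain of pyrrole units into the uroporphyrinogen ring, and its loss causes congenital erythropoietic porphyria. It was at 16.35, 17.8 and 17.1 FPKM in sh-luc and at 18.3, 21.25 and 17.9 FPKM in sh-IUR1. UROS was the one enzyme of the 8 whose groups did not overlap, a pattern with higher values in sh-IUR1 that 4.04% of all genes tested showed, but the gap between the nearest libraries was narrow. Its means were 17.1 ± 0.745 and 19.15 ± 1.82 FPKM, and the log2 difference of 0.15 had an interval that included 0 (-0.028 to 0.33, adjusted p = 0.930 by limma). No enzyme had groups that did not overlap with lower values in sh-IUR1, a pattern of 3.03% of all genes tested.

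UROD (gene ID 7389, chromosome 1 from 45012254 to 45015575) trims the side chains of uroporphyrinogen and is the enzyme deficient in porphyria cutanea tarda. It was at 413, 441 and 444 FPKM in sh-luc and at 437, 446 and 416 FPKM in sh-IUR1. As for ALAS1, the unnumbered library was low in sh-luc and r2 was low in sh-IUR1. With means of 432.7 ± 16.9 and 432.9 ± 15.4 FPKM, the log2 difference was 0.0006 (95% interval -0.13 to 0.13, adjusted p = 0.997 by limma) and -0.0201 after median-ratio scaling. UROD was also the least variable of the enzymes, with a coefficient of variation of 3.34% over the 6 libraries, and PPOX the most variable with 16.25%.

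**Figure D2:**
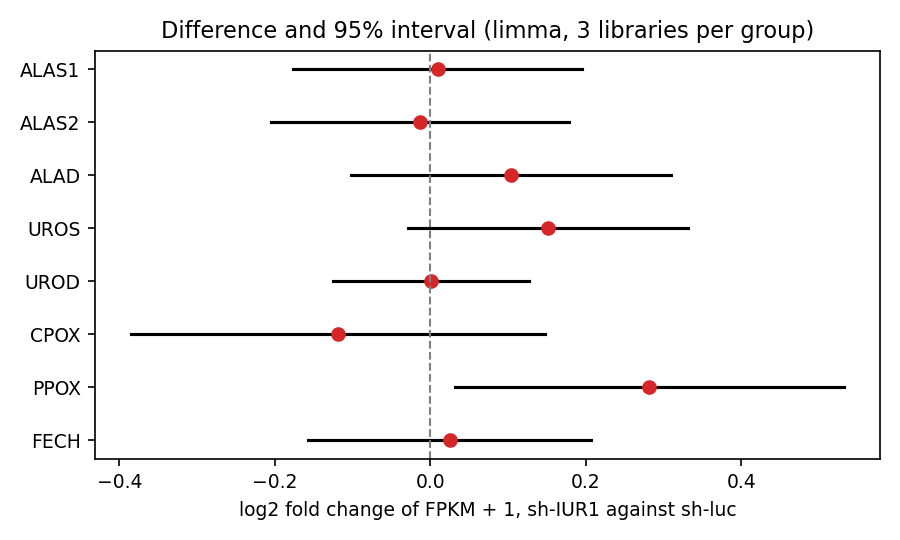
Difference in log2(FPKM + 1) between sh-IUR1 and sh-luc for each enzyme (points) with the 95% interval of the limma fit (lines, 3 libraries per group). The interval of PPOX, from 0.03 to 0.53, lies above 0, and those of the other 7 enzymes include 0.

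Among the mitochondrial steps that finish the molecule, CPOX and PPOX lay on opposite sides of 0 and FECH close to it. CPOX (gene ID 1371, chromosome 3 from 98570488 to 98593611), which turns coproporphyrinogen into protoporphyrinogen, was at 25.0, 20.6 and 19.95 FPKM in sh-luc and at 20, 16.9 and 23.4 FPKM in sh-IUR1. Its highest value was in the unnumbered sh-luc library, where 6 of the other enzymes were lowest, and its lowest value was in r1 of sh-IUR1, where 5 of the others were highest. The means were 21.85 ± 2.77 and 20.1 ± 3.23 FPKM, the groups overlapped, and the log2 difference of -0.12 (95% interval -0.39 to 0.15, adjusted p = 0.930 by limma) shrank to -0.0067 without r1 of sh-IUR1 and to -0.0212 without the unnumbered sh-luc library. The canonical transcript of CPOX shares 163 bases (6.02%) with another protein-coding model on the same strand, so that a part of its fragments may be counted for either.

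PPOX (gene ID 5498, chromosome 1 from 161165728 to 161178013) oxidizes protoporphyrinogen to protoporphyrin, the step impaired in variegate porphyria. Its levels were 15.8, 19.6 and 19.05 FPKM in sh-luc and 23.85, 24.4 and 18.7 FPKM in sh-IUR1. The unnumbered and r1 libraries of sh-IUR1 lay above all of sh-luc, and r2 of sh-IUR1 lay below r1 and r2 of sh-luc, so that the groups overlapped. The log2 difference was 0.28 (95% interval 0.03 to 0.53, SE 0.11), for which limma gave an unadjusted p = 0.0311 (adjusted p = 0.930). PPOX was thus 1 of 8 enzymes past the unadjusted threshold in the higher direction, against 1.65% of all genes tested, and 0 of 8 enzymes were past it in the lower direction, against 0.994%. Without the unnumbered sh-luc library the difference was 0.19 (unadjusted p = 0.0856 by limma), and without r2 of sh-IUR1 it was 0.40 (unadjusted p = 0.0033 by limma). It also missed the unadjusted threshold without the unnumbered library (unadjusted p = 0.109 by limma) or without r1 (unadjusted p = 0.113 by limma) of sh-IUR1.

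FECH (gene ID 2235, chromosome 18 from 57544377 to 57586702) inserts iron into protoporphyrin and is the enzyme affected in erythropoietic protoporphyria. It was at 31.2, 37.2 and 36.3 FPKM in sh-luc and at 35.1, 37.95 and 33.4 FPKM in sh-IUR1. Again the unnumbered sh-luc library was lowest, r1 of sh-IUR1 was highest, and the groups overlapped. The means of 34.9 ± 3.24 and 35.5 ± 2.30 FPKM gave a log2 difference of 0.0249 (95% interval -0.16 to 0.21, adjusted p = 0.967 by limma).

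Most of the enzymes shared the libraries in which they were low or high. Of the 8, 6 were lowest in the unnumbered sh-luc library, where 38.4% of all genes tested were lowest, and 5 were highest in r1 of sh-IUR1, where 25.9% of all genes tested were highest. Summed over the 8 enzymes, where UROD makes up most of the sum, the level was 543, 584 and 583 FPKM in sh-luc and 582, 596 and 552 FPKM in sh-IUR1. Without the unnumbered sh-luc library, 3 enzymes were higher and 5 lower in sh-IUR1, with a median log2 difference of -0.0266, and without r1 of sh-IUR1 the count was likewise 3 and 5. The levels of CPOX ran against those of PPOX, with 1.58, 1.05 and 1.05 FPKM of CPOX per FPKM of PPOX for the control and 0.839, 0.694 and 1.25 for the knockdown, a ratio chosen after its values were seen and therefore not tested.

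**Figure D3:**
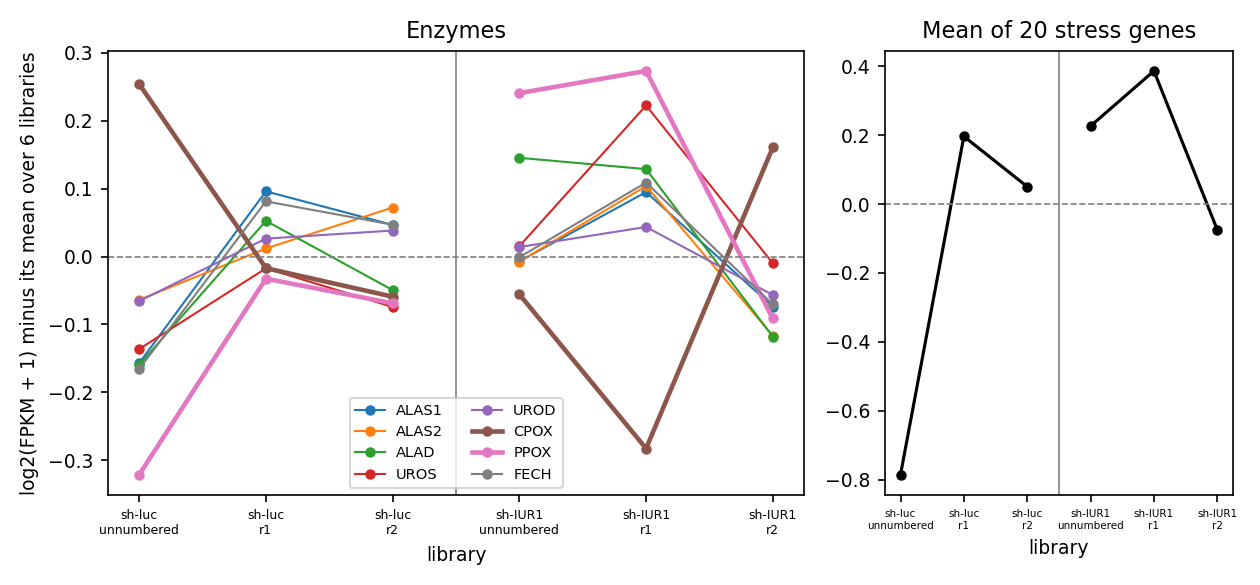
Left, log2(FPKM + 1) of each enzyme minus its own mean over the 6 libraries, by library, with CPOX and PPOX as thick lines; right, the same for the mean of 20 stress genes. Lines join libraries of one group only to help the eye, since libraries have no order; in the unnumbered sh-luc library CPOX is highest and 6 of the other enzymes and the stress genes are lowest.

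Genes of the integrated stress response, such as DDIT3 and ASNS, had their extremes mostly in the same libraries, with 20 of 20 lowest in the unnumbered sh-luc library and 16 of 20 highest in r1 of sh-IUR1. ATF4, the transcription factor of this response, was among the exceptions and was highest in r2 of sh-IUR1. All 20 tested were higher in sh-IUR1 by sign (also after both scalings), where 58.0% of all genes tested were higher. The median log2 difference of the 20 was 0.33. At an unadjusted p under 0.05 there were 0 of 20, against 1.65% of all genes tested in the higher direction. The summed level of these 20 genes was 1509 FPKM in the unnumbered sh-luc library and 2825 and 2550 FPKM in r1 and r2, against 2821, 3141 and 2374 FPKM in sh-IUR1. Without the unnumbered sh-luc library, 19 of 20 were higher, with a median of 0.0501 and 0 at that p, where 141 of all 12277 were. Without r1 of sh-luc 13 of 20 were at that p, with a median of 0.54, where 597 of all 12274 genes tested were higher at that p. The median was 0.51 without r2 of sh-IUR1, with 2 of 20 at that p, where 475 of all 12277 genes tested were higher at that p. It was 0.22 without r1 of sh-IUR1, with 0 of 20, where 126 of all 12270 were. With the replicate block 9 of 20 were at that p, where 355 of all 12276 genes tested were higher at that p. The 9 erythroid markers ran the other way, with 9 of 9 lower in sh-IUR1 by sign, as were 5157 of all 12276 genes tested. This count was 8 of 9 after quantile normalization and 6 of 9 without the unnumbered sh-luc library. At an unadjusted p under 0.05 there were 0 markers, but 2 without r1 of sh-luc, where 257 of all 12274 genes tested were lower at that p. The median of the markers was -0.0900 (-0.0331 without the unnumbered sh-luc library and -0.16 without r1 of sh-luc). Their summed level was 6653, 5117 and 5678 FPKM in sh-luc and 5268, 5011 and 5600 FPKM in sh-IUR1. The part of either group of genes in the values of PPOX, UROS, CPOX and the other enzymes was not tested.

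As a description of how ALAS1 and ALAS2 varied, Pearson correlations of log2(FPKM + 1) were computed over the 6 libraries, which share their groups and their scaling. The genes most like ALAS1 were ZNF274 (r = 0.9985), GABRA3 (0.9962), FECH (0.9951), PRICKLE1 (0.9937) and PPP1R21 (0.9925), out of 5055 genes compared, of which 425 had an r over 0.9. FECH, the last enzyme of the pathway, thus had rank 3 of these 5055 for likeness to ALAS1. Among the enzymes, ALAS1 had an r of 0.936 with UROD, 0.7987 with ALAS2, 0.739 with ALAD, 0.668 with PPOX, 0.620 with UROS and -0.8726 with CPOX. ALAS2 was most like PAM16 (0.9918), AGPAT2 (0.9843), LCMT1 (0.9826), TLCD1 (0.9799) and DMAP1 (0.9729), out of 5056 genes compared, of which 46 had an r over 0.9, and it had an r of 0.916 with UROD and -0.8826 with CPOX.

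The genes that supply, control and use the pathway were examined next, and 0 of them passed the adjusted threshold or an unadjusted p under 0.05. Of 13 genes for mitochondrial supply and transport, 10 were higher and 3 lower in sh-IUR1 by sign (9 and 4 after median-ratio scaling), with a median log2 difference of 0.0429. SLC25A38, the carrier that brings glycine for ALAS into the mitochondrion, had means of 35.9 FPKM (sh-luc) and 37.1 FPKM (sh-IUR1), and ABCB10, which assists heme synthesis in the inner membrane, 31.5 and 31.8 FPKM. SLC25A37 (mitoferrin, the iron importer that supplies FECH) was at 19.95, 20.15 and 18.9 FPKM in sh-luc and at 20.5, 20.6 and 21.2 FPKM in sh-IUR1, so that its groups did not overlap, with a log2 difference of 0.07 (adjusted p = 0.930 by limma). It was 1 of 13 genes of this list with higher values and no overlap, against 4.04% of all genes tested. The other named genes of this list differed by 0.0341 (SLC25A39), -0.0236 (TMEM14C), 0.0429 (TSPO), -0.0930 (PGRMC1) and -0.0805 (PGRMC2) on the log2 scale.

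Among 9 genes that act on the ALAS enzymes, 6 were higher and 3 lower (4 and 5 after median-ratio scaling), with a median of 0.0114. CLPX, the unfoldase that activates ALAS and targets it for degradation, had means of 14.9 and 14.1 FPKM (log2 difference -0.0810), and the mitochondrial protease LONP1, which degrades ALAS1, had a difference of 0.14. The differences of CLPP, SUCLG1 and ACO1 were 0.0746, 0.0004 and 0.0312. None of these 9 genes had groups without overlap.

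All 8 genes tested for heme export, binding and import were higher by sign, where 58.0% of all genes tested were higher. The count was 6 after median-ratio scaling and 5 after quantile normalization, and the median was 0.0631. FLVCR2 and LRP1 had low means (0.905 and 0.367 FPKM), and with the filter raised to 1 FPKM 6 genes were tested, of which 6 were higher. The groups did not overlap for 3 of 8, against 4.04% of all genes tested that were higher without overlap, namely the exporter ABCG2 (8.20 and 9.10 FPKM, log2 difference 0.13), the lysosomal heme transporter SLC48A1 (15.6 and 17.4 FPKM, 0.14) and SLC46A1, a carrier of folate and heme (4.81 and 5.61 FPKM, 0.19). FLVCR1, HEBP1 and HEBP2 differed by 0.0068, 0.0290 and 0.0103. For heme breakdown and its regulators, 3 genes were higher and 5 lower (4 and 4 after quantile normalization, 5 and 3 without the unnumbered sh-luc library or without r2 of sh-IUR1), with a median of -0.0104. The constitutive heme oxygenase HMOX2 was at 50.9, 43.4 and 42.8 FPKM in sh-luc and at 39.6, 41.3 and 42.6 FPKM in sh-IUR1, without overlap (1 of 8 genes, against 3.03% of all genes tested) and with a log2 difference of -0.14 (95% interval -0.31 to 0.0280, adjusted p = 0.930 by limma). BLVRB, BLVRA, NFE2L2 and NQO1 differed by 0.0529, -0.0032, 0.0919 and -0.0307, and the inducible heme oxygenase HMOX1 was not analysed here.

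Of 11 genes for heme use and sensing, 4 were higher and 7 lower, with a median of -0.0040. This split had no stable direction, being 2 and 9 after median-ratio scaling or without the unnumbered sh-luc library, 7 and 4 (median 0.0153) without r2 of sh-luc, and 6 and 5 without the unnumbered or the r2 library of sh-IUR1. EIF2AK1, the kinase that halts globin translation when heme is scarce, had means of 88.45 and 89.0 FPKM and a log2 difference of 0.0081. SDHC, the heme-binding subunit of succinate dehydrogenase, was lower without overlap, as 1 of 11 genes against 3.03% of all genes tested (45.2 and 42.3 FPKM, log2 difference -0.0915, adjusted p = 0.930 by limma), and CYCS, CYC1, CYBA and NR1D1 differed by -0.14, -0.0049, -0.0032 and 0.0615. The 16 genes of iron-sulfur clusters and ferredoxins, on which FECH depends for its cluster, split into 8 higher and 8 lower (6 and 10 after median-ratio scaling, 9 and 7 without r2 of sh-IUR1), with a median of 0.0012. Their named genes ranged from -0.0727 (FDX1) to 0.11 (ISCA2), with HSPA9 at 0.0398, GLRX5 at 0.0079, CIAPIN1 at -0.0160 and BOLA3 at -0.0657, and the groups did not overlap for 1 gene in each direction, IBA57 (1 of 16 higher, against 4.04% of all genes tested) and LYRM4 (1 of 16 lower, against 3.03%), both singled out after their values were seen.

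Of 9 regulators of the enzymes in erythroid cells, transcription factors and their cofactors, 4 were higher and 5 lower, with a median of -0.0252 and overlapping groups for all 9. GATA1, an activator of ALAS2, had means of 197.0 and 190.0 FPKM, and KLF1, which binds CACCC words, 118.6 and 110.7 FPKM. The log2 differences were -0.0522 for GATA1, -0.10 for KLF1, -0.0252 for TAL1, 0.0646 for NFE2, 0.0217 for GATA2, -0.14 for ZFPM1, 0.0615 for LDB1, -0.17 for LMO2 and 0.0977 for BACH1, a heme-binding repressor.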

How the data were processed

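Total RNA of K562 cells was sequenced in 3 sh-luc and 3 sh-IUR1 libraries. The methods state that reads were trimmed, masked and aligned to hg38 by the authors, and the submitters' processing notes name SAMtools 0.1.19. The aligner and the annotation are not given in the sources used here. The values deposited by the authors are FPKM with 2 decimals, whereas the methods name RPKM. The authors also deposited a score (the z-score of the FPKM over the 6 libraries, recomputed with differences of at most 2.2e-14), the number of the cluster of each gene (1 of 9) and its membership there as a fraction, none of which was used. The table holds genes with an SD of at least 0.05 FPKM (smallest 0.0501), so genes with nearly constant values are outside every count, and 0 columns of samples were without a label. Symbols were found for 12363 of 12486 genes in RefSeq GRCh38.p14, and transcript overlaps were taken from GENCODE.

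FPKM were transformed to log2(FPKM + 1). A fold change on this scale understates the change of low genes. For genes whose mean reached 0.1 FPKM, the group effect was estimated by lmFit and trended eBayes in limma 3.58.1 (R 4.3.3), and Benjamini-Hochberg adjustment was made over all genes tested. Count models do not apply to FPKM. P-values set the group difference against the spread between these 3 libraries per group, which eBayes moderated with the spread of all genes tested. The step was tested on simulated data with independent noise and changes larger than those of the enzymes. That test therefore does not cover differences as small as theirs or shifts shared by many genes. As alternatives, the pseudocount was set to 0.1, the filter was dropped or raised to 1 FPKM, libraries were scaled by median ratios (size factors 0.9754 to 1.014) or quantile-normalized, eBayes was run untrended, the replicate number was added as a block, and every library was omitted once. Named genes were the 8 enzymes and, in each pathway list, the 4 genes with the highest mean, the gene with the smallest p in each direction and a few genes named beforehand, and the genes most like ALAS1 and ALAS2 were sought among genes whose mean reached 1 FPKM and whose SD of log2(FPKM + 1) reached 0.1. The members and lists were chosen with earlier results of these data known. Other steps were run in Python 3.11.15 (matplotlib 3.10.9, scipy 1.17.1, pandas 2.3.3, numpy 2.4.6).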

Additional observations from a re-analysis of the deposited data

How the results depend on the processing

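Under every alternative 0 genes passed the adjusted threshold, the enzymes' adjusted p staying at or above 0.667. Of 104 alternative values of the enzymes 92 kept their direction and 12, of 4 enzymes, reversed, and of 585 values of the other named genes 48, of 18 genes, reversed. Median-ratio scaling gave -0.0104 (ALAS1), -0.0201 (UROD), -0.0066 (ABCB10), -0.0201 (SUCLG1), -0.0089 (FLVCR1), -0.0097 (HEBP2), -0.0124 (EIF2AK1) and -0.0128 (GLRX5). Quantile normalization gave -0.0054 (ALAS1), 0.0064 (TMEM14C), -0.0451 (FLVCR1), -0.0032 (HEBP1), -0.0017 (HEBP2), 0.0094 (BLVRA), 0.0158 (CYBA) and 0.0302 (CYC1). When single libraries were omitted, the enzymes that changed sign ranged over -0.0666 to 0.0599 (ALAS1), -0.0688 to 0.0414 (ALAS2), -0.032 to 0.0291 (UROD), -0.0517 to 0.0718 (FECH), and the others were PPOX at 0.1917 to 0.3981, UROS at 0.0787 to 0.1949, ALAD at 0.0506 to 0.1893 and CPOX at -0.2286 to -0.0067. The other genes that changed sign ranged over -0.015 to 0.0445 (ABCB10), -0.0203 to 0.0966 (SLC25A38), -0.0439 to 0.0082 (TMEM14C), -0.0437 to 0.086 (ACO1), -0.0245 to 0.0258 (SUCLG1), -0.0645 to 0.0752 (FLVCR1), -0.0583 to 0.1248 (HEBP1), -0.0488 to 0.0435 (HEBP2), -0.0331 to 0.0346 (BLVRA), -0.019 to 0.0192 (CYBA), -0.0422 to 0.0194 (CYC1), -0.0309 to 0.0476 (EIF2AK1), -0.0379 to 0.1298 (NR1D1), -0.1082 to 0.0113 (BOLA3), -0.0435 to 0.0174 (CIAPIN1), -0.0085 to 0.029 (GLRX5), -0.0006 to 0.0874 (HSPA9), -0.0206 to 0.1151 (LDB1), and the log2 ratio of ALAS2 to ALAS1 over -0.0709 to 0.0178. The number of genes with an unadjusted p under 0.05 (325) ranged from 156 without the unnumbered sh-IUR1 library to 854 without r1 of sh-luc, and was 712 without r2 of sh-IUR1. The cause was not tested. The replicate block gave 533 such genes and left the ratio of ALAS2 to ALAS1 at -0.0230. Beyond the shared number, no pairing of the libraries is stated. The correlations of the deviations of libraries with the same number were 0.0444 (unnumbered), 0.385 (r1) and -0.34 (r2). These values cannot decide whether the libraries are paired, because the deviations within a group depend on each other. With the block PPOX had an unadjusted p of 0.0183 by limma, and 0 genes passed the adjusted threshold. The number of fragments is unknown, so precision at low FPKM could not be given.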
